A study of Mus musculus with 8 samples.

Results

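Corticothalamic layer 6-like neurons were taken from a single-cell RNA-seq library of Ebf2-EGFP+ cells as the 300 barcodes with the highest mean level of Foxp2, Rprm, Hs3st4 and Wnt7b. The library held 3000 barcodes, of which 2225 were eligible, with at most 25000 UMIs (unique molecular identifiers, which count captured RNA molecules once each) and Reln under 5 UMIs per 10000. The remaining 1925 eligible barcodes served as the comparison. The cells were sorted from the cerebral cortex of E15.5 embryos of the Tg(Ebf2-EGFP)FB58Gsat strain, a transgenic line in which a fluorescent protein is driven by Ebf2 regulatory sequence. About 8 embryos from a pair of timed pregnancies were pooled, and every sample carried the transgene and passed the same EGFP+ gate, so there was neither a treatment nor a control group. The gate was meant to collect Cajal-Retzius (CR) neurons, the Reln-secreting cells of layer 1. The 8 labelled samples shared 1 matrix in which no barcode was tied to a sample, so the data are 1 library without replicates, and no test of the members against other cells was possible.

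Corticothalamic neurons are the excitatory neurons of cortical layer 6 that send their axons to the thalamus. They are born early, soon after the subplate neurons that lie beneath them, and are set apart from the layer 5 neurons that project to the brainstem and spinal cord by transcription factors such as Tbr1 and Sox5, which hold back the layer 5 regulators Fezf2 and Bcl11b. In the adult cortex Ntsr1, Foxp2 and Tle4 are widely used to mark them.

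All barcodes were distinct. The members held between 10725 and 24767 UMIs, with a median of 12632 UMIs and 3699 genes. The other eligible barcodes were deeper, with a median of 15247 UMIs and 4003 genes. Mitochondrial UMIs made up a median of 3.07% of the members' UMIs and 2.90% of the others'. At least 5 Xist UMIs together with at least 2 Y-linked UMIs were found in 5 members (1.67%) and in 0.779% of the other eligible barcodes. Such barcodes can hold RNA of more than 1 embryo, and barcodes with fewer UMIs of either kind were not counted. Levels were summed over all barcodes of a group and are given as CPM, a gene's count per 1000000 UMIs. All intervals are exact 95% intervals that cover counting error only.

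The members were chosen by the 4 genes, so their levels describe the selection and are not findings. Foxp2 encodes a forkhead repressor and lies at chr6:14901349-15441977 (GRCm38, plus strand). Summed over the members it reached 87.8 CPM, against 6.74 CPM in the other eligible barcodes. Rprm, a p53-induced regulator of the cell cycle at chr2:54084093-54085552 (minus strand), reached 1773 CPM against 709 CPM. Hs3st4 encodes a sulfotransferase that edits heparan sulfate chains and lies at chr7:123982869-124398989 (plus strand), and it stood at 240 CPM against 70.9 CPM. Wnt7b, a secreted Wnt ligand at chr15:85535437-85582473 (minus strand), stood at 511 CPM against 142 CPM.

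The members did not form a group with an edge. Their mean z-score ran from 2.80 to 0.8103, and the next eligible barcode stood at 0.8096. The last barcode inside held 1 Foxp2, 20 Rprm, 0 Hs3st4 and 8 Wnt7b UMIs, while the first outside held 0, 21, 3 and 6 UMIs of the same genes. Among the members Rprm ranged from 0 to 60 UMIs per barcode around a median of 22.5, whereas Foxp2 ranged from 0 to 21 around a median of 1. With every barcode thinned to 10000 UMIs, so that depth was equal, 126 members (42.0%) held at least 1 UMI of all 4 genes, 166 members (55.3%) held 3 of them and 8 members held 2. All 4 were found together in 20 (1.04%) of the other eligible barcodes and in 3 (1.04%) of 288 Reln-high barcodes, the CR-like cells with at least 5 Reln UMIs per 10000. Foxp2 was the gene most often missing, with a UMI in 51.3% of thinned members, in 5.19% of the other eligible barcodes and in 2.08% of Reln-high barcodes.

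Each of the 4 genes was then left out of the score in turn, and its level was read in the 300 barcodes chosen by the other 3. These barcodes were selected on the same RNA in the same library, so the values describe how far the 4 genes went together. Held-out Foxp2 stood at 36.7 CPM against 13.5 CPM, a log2 ratio of 1.45 (1.16 to 1.72), and only 200 of those barcodes were also members. Held-out Wnt7b stood at 393 CPM against 157 CPM (log2 ratio 1.32). Held-out Hs3st4 stood at 172 CPM against 79.8 CPM (log2 ratio 1.11). Held-out Rprm stood at 1425 CPM against 753 CPM (log2 ratio 0.92). Every one of the 4 was therefore higher where the other 3 were high, Rprm by less than 2-fold, and Foxp2 far less than in the members themselves.

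Among 10350 genes with at least 100 UMIs and at most 20% of them in 1 barcode, other than the 4 genes and Reln, 93 (0.899%) were at least 2-fold higher in the members and 340 (3.29%) at least 2-fold lower. The median log2 ratio over all of them was -0.01. Of 12 further layer 6 and corticothalamic markers, all measured, 3 were at least 2-fold higher and none at least 2-fold lower, and their median log2 ratio was 0.46. Ntsr1, the neurotensin receptor that marks corticothalamic cells in the adult, stood at 41.9 CPM (35.8 to 48.8) in the members and 11.8 CPM in the others, a log2 ratio of 1.83 (1.56 to 2.10). Tle4, a Groucho-family co-repressor, stood at 149 CPM against 66.5 CPM, a log2 ratio of 1.17 (1.03 to 1.30). Grik3, a kainate receptor subunit, stood at 54.2 CPM against 25.7 CPM, a log2 ratio of 1.08. The 3 genes were thus higher in the chosen cells although they had no part in the choice. Grik3 fell under 2-fold in 6 of 18 other settings and Tle4 in 2.

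The transcription factors that define layer 6 followed at smaller ratios. Tbr1, which specifies layer 6 identity, stood at 442 CPM in the members against 251 CPM, a log2 ratio of 0.82 (0.74 to 0.89). Sox5, which times the production of deep-layer neurons, had a log2 ratio of 0.63, and the GATA cofactor gene Zfpm2 one of 0.60. For Sla, Nfia and Nfib the log2 ratios were 0.32, 0.21 and 0.15. The other markers of the list were level or lower, with log2 ratios of -0.11 for Syt6, -0.22 for Crym and -0.32 for Foxp1. Beside the genes of the rule, Ntsr1, Tle4 and Tbr1 thus went with the label against the other eligible barcodes as a whole. Syt6, Crym and Foxp1 did not. In barcodes chosen for subplate genes, described further on, Tle4 and Tbr1 were nearly as high, and Ntsr1 stood at 31.6 CPM. Tle4 and Tbr1 therefore hardly set the members apart from those barcodes.

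Several subplate markers were higher alongside the layer 6 markers. Of 8 such genes 4 had enough UMIs, and 3 of those were at least 2-fold higher. The median log2 ratio of the 4 was 1.03, against 0.46 for the 12 further layer 6 markers. Nr4a2, an orphan nuclear receptor of subplate and deep layer 6 cells, stood at 165 CPM against 81.7 CPM, a log2 ratio of 1.02 (0.89 to 1.14). Nxph4, a neurexophilin, stood at 87.6 CPM against 42.5 CPM (log2 ratio 1.04). Kcnab1, a potassium channel beta subunit, stood at 50.2 CPM against 20.3 CPM (log2 ratio 1.30). Tmem163 had a log2 ratio of -0.10. The mature subplate markers Cplx3, Ctgf and Svil were near or at 0 in both groups. They had 1, 4 and 0 UMIs in the members and 2, 11 and 2 UMIs in the others, too few to compare. The ratios of Nr4a2 and Nxph4 lay at the limit of 2-fold, and with 150 members in place of 300 the log2 ratios of Tle4, Nr4a2, Nxph4 and Kcnab1 were 0.91, 0.77, 0.90 and 0.63.

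**Figure D1:**
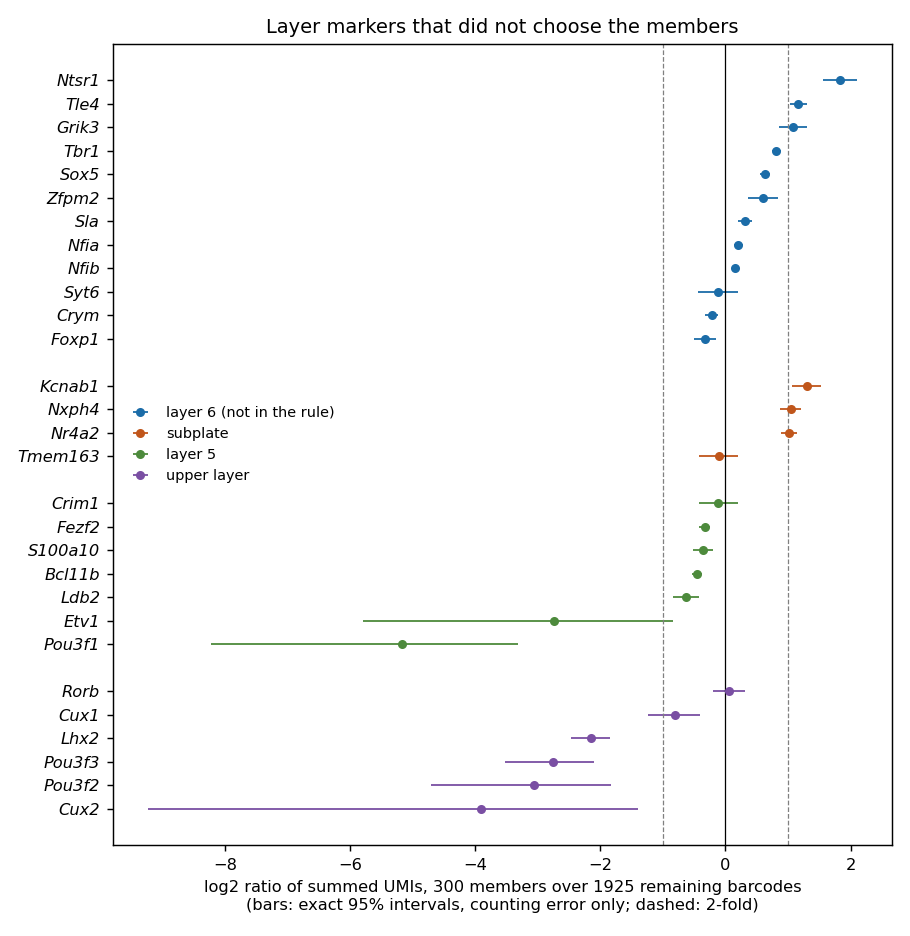
The log2 ratio of summed UMIs in the 300 members over the 1925 remaining eligible barcodes (horizontal axis) is drawn for markers of layer 6, subplate, layer 5 and upper layers, with exact 95% intervals for counting error. Ntsr1, Tle4, Grik3, Kcnab1, Nxph4 and Nr4a2 lie past the dashed line at 2-fold, while no layer 5 or upper-layer marker drawn does on that side.

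Markers of the neighbouring layer 5 were level or lower. None of the 7 tested was at least 2-fold higher, 2 were at least 2-fold lower, and the median log2 ratio was -0.46. Fezf2, which specifies subcerebral projection neurons, stood at 303 CPM in the members against 381 CPM, a log2 ratio of -0.33 (-0.42 to -0.24). Bcl11b, the transcription factor CTIP2 of the same neurons, stood at 375 CPM against 515 CPM (log2 ratio -0.46). Neither was absent, since a Fezf2 UMI was found in 79.7% of thinned members and in 83.4% of the other eligible barcodes, against 22.9% of Reln-high barcodes. Pou3f1 was almost absent from the members, with 2 UMIs against 547, and Etv1 also had 2 UMIs. These low counts left wide intervals, from -8.22 to -3.31 on the log2 scale for Pou3f1 and from -5.80 to -0.84 for Etv1. The direction of Etv1 was not stable, and its log2 ratio was 0.36 when the 4 genes' UMIs were summed to choose the members.

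Upper-layer markers were lower in part. Of 7 tested genes 4 were at least 2-fold lower, namely Lhx2 (log2 ratio -2.15), Pou3f3 (-2.76), Pou3f2 (-3.06) and Cux2 (-3.91, from 1 UMI in the members, -9.22 to -1.40). Rorb stood at 37.1 CPM against 35.6 CPM, and the interval of its log2 ratio, from -0.19 to 0.31, held 0.

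Genes of newborn neurons and progenitors were in part much lower in the members. Neurod1, a factor of cells leaving the progenitor state, stood at 6.78 CPM against 93.3 CPM, a log2 ratio of -3.78 (-4.39 to -3.24). Its level in the others came from a minority of them. The 10% of the other eligible barcodes with most Neurod1 held 84.4% of its UMIs there, and the median was 0 UMIs in both groups. Nrp1, a semaphorin receptor, stood at 17.6 CPM against 145 CPM, a log2 ratio of -3.04. Rnd2 and Unc5d, which act in neuron migration, had log2 ratios of -1.99 and -1.07, the latter under 2-fold in 10 of 17 other settings, so that 4 of the 8 genes in the list of immature neurons were at least 2-fold lower. The other 4 differed little, with log2 ratios of 0.26 for Neurod2, 0.22 for Sox11, 0.05 for Neurod6 and -0.03 for Dcx. Eomes, Neurog2 and Mfap4 were at least 2-fold lower among 6 genes of intermediate progenitors, and Pax6, Vim and Fabp7 among 4 tested genes of radial glia and cycling cells.

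The members and the other eligible barcodes, chosen by the same Reln limit, carried little of the CR signature that the gate was meant to collect. Reln, held down by the rule, stood at 64.3 CPM against 74.6 CPM in the other eligible barcodes and 1999 CPM in Reln-high barcodes. Trp73 stood at 3.26 CPM in the members, 5.22 CPM in the others and 169 CPM in Reln-high barcodes. Ebf2, whose regulatory sequence drives the sorted EGFP, had 6 UMIs in the members (1.51 CPM, 0.553 to 3.28), 2.31 CPM in the others and 32.5 CPM in Reln-high barcodes. Reln-high barcodes were chosen by the opposite Reln limit, so the contrast with them describes the selection. Against the others, the intervals of the log2 ratios of Trp73 (-1.62 to 0.14) and Ebf2 (-2.11 to 0.58) held 0. Of 7 CR genes tested besides Reln, Calb2 and Cxcr4 were at least 2-fold lower in the members and none was at least 2-fold higher. The summed level of 9 CR genes was 97.1 CPM against 202 CPM, much of it from Calb2, and without Calb2 it was 57.5 CPM against 79.5 CPM. Interneuron genes summed to 6.78 CPM in the members and 25.7 CPM in the others, but 78.8% of the UMIs of Sst lay in 1 barcode, and without Sst the sums were 4.77 and 7.40 CPM. Dlx6os1 was at 0 in the members, and none of the interneuron genes met the limits for comparison. Among 8 genes of blood, microglia, endothelium and meninges, C1qb, Cx3cr1, Cldn5, Col1a1 and Col3a1 were at 0 in the members. The others held 6, 2, 11, 7 and 0 UMIs of them, too few to compare. The haemoglobin genes Hba-a1 and Hbb-bs stood at 20.1 and 23.3 CPM in the members and at 243 and 232 CPM in the others. However, 91.3% and 90.2% of their UMIs lay in 1 barcode.

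The 20 highest ratios were taken among genes found in at least 10% of members. Npy, which encodes neuropeptide Y, led them with 377 CPM (358 to 397) against 55.5 CPM, a log2 ratio of 2.76 (2.66 to 2.87). Npy was also uneven among the members. Its median was 0 UMIs and its highest count 69 UMIs per member, and the 10% of members with most Npy held 65.6% of the UMIs. The other 270 members stood at 144 CPM and their log2 ratio was 1.94, against other eligible barcodes from which the 1 barcode holding 545 of 1680 Npy UMIs was also left out. With that barcode alone left out the log2 ratio was 3.33.

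Ngfr, the p75 neurotrophin receptor at chr11:95568818-95587735, stood at 48.7 CPM against 11.0 CPM, a log2 ratio of 2.14 (1.88 to 2.40). Grm3, a metabotropic glutamate receptor, stood at 31.9 CPM against 8.02 CPM (log2 ratio 1.99), and Mc4r, a melanocortin receptor, at 38.9 CPM against 10.9 CPM (log2 ratio 1.84). Ntsr1 belongs to the same ranking and to the layer 6 list. Kitl, the ligand of the Kit receptor, stood at 105 CPM against 36.6 CPM, and Nxph3, a neurexophilin, at 180 CPM against 59.7 CPM. Gdf10, a secreted factor of the TGF-beta superfamily, stood at 10.8 CPM against 3.60 CPM. The ranking also held the transcriptional regulators Maml2 (log2 ratio 1.93) and Nfe2l3 (1.49), the sulfotransferase gene Hs3st5 (1.87), Rgs8, a regulator of G-protein signalling (1.86), the caveolin gene Cav1 (1.65) and the presynaptic scaffold gene Rimbp2 (1.62). For 5 more, Glt8d2, A830018L16Rik, Whrn, Gm27040 and Mlip, the log2 ratios lay between 1.55 and 1.63. Gm27040 is an antisense gene at chr7:123971046-123983454 (minus strand). It overlaps the start of Hs3st4, a gene of the rule, and so is not separate from a locus that helped choose the members. Hs3st5, like Hs3st4, encodes a 3-O-sulfotransferase.

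**Figure D2:**
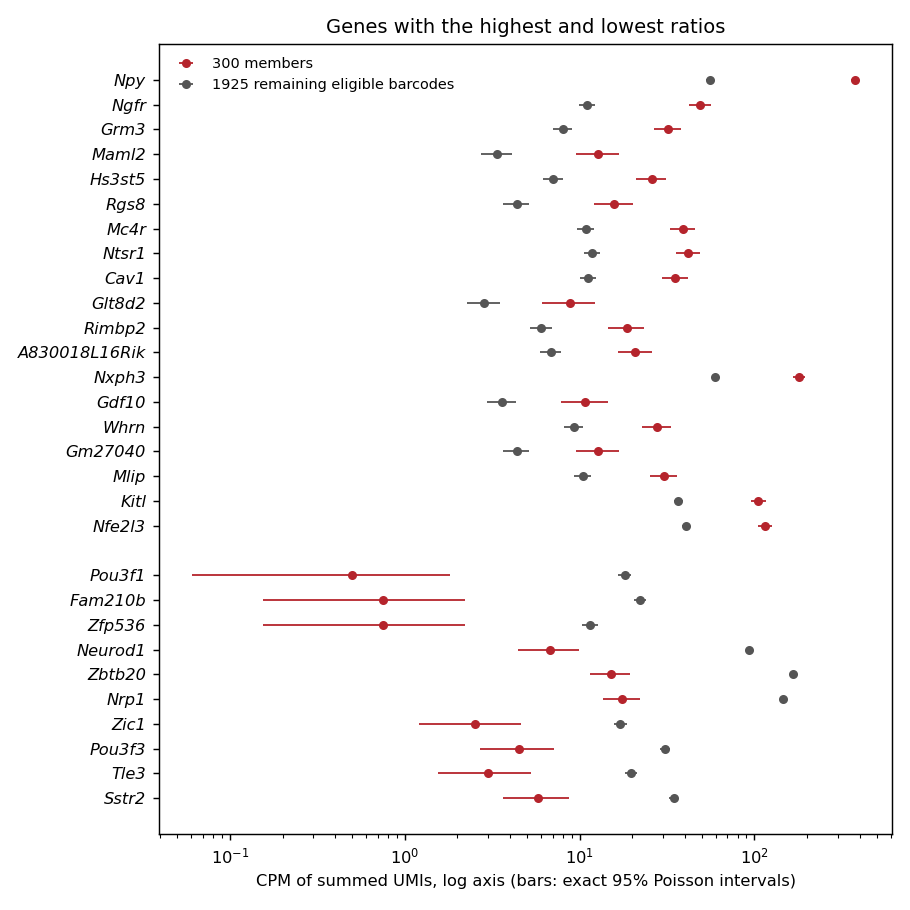
Levels in CPM (horizontal log axis) of genes with the highest and the lowest ratios, among those found in at least 10% of the members or of the other barcodes, are drawn for the 300 members (red) and the 1925 remaining eligible barcodes (grey), with exact 95% Poisson intervals. Npy, Nxph3, Nfe2l3 and Kitl are the highest-ratio genes above 100 CPM in the members, and Pou3f1, Fam210b and Zfp536 rest on 2 or 3 UMIs there.

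The 10 lowest ratios were taken among genes found in at least 10% of the other eligible barcodes, so that rarer genes with lower ratios, such as Cux2 and Tcf7l2, were not ranked. Besides Pou3f1, Neurod1 and Pou3f3 they included Zbtb20, a zinc-finger repressor, at 15.1 CPM against 166 CPM (log2 ratio -3.46, -3.86 to -3.10), and Zic1, at 2.51 CPM against 17.1 CPM (log2 ratio -2.77). The 10% of the other eligible barcodes with most of the gene held 82.7% of its UMIs there for Zbtb20 and 94.6% for Zic1. Fam210b and Zfp536 had 3 UMIs each in the members, with log2 ratios of -4.88 (-7.16 to -3.33) and -3.92 (-6.21 to -2.36). Tle3, a co-repressor of the same family as Tle4, stood at 3.01 CPM against 19.7 CPM, a log2 ratio of -2.71, so that the pair differed in opposite directions. Nrp1 and the somatostatin receptor gene Sstr2 (log2 ratio -2.58) were the other two of the 10. The log2 ratio of Zic1 was -0.96 when Rprm was left out of the score, and that of Fam210b was -2.56.

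Promoter sequences are shown for the 3 leading or rule genes whose 250 bases before the start held a T-box half-site, AGGTGT, the letters that Tbr1 and related factors are known to bind. They come from RefSeq (GRCm38.p6), run 5′ to 3′ on the gene's strand, and the capitals mark the half-site, read as ACACCT where it lies on the opposite strand. They are Ntsr1 (chr2:180499726-180499975, plus strand), Hs3st5 (chr10:36506557-36506806, plus strand) and Hs3st4 (chr7:123982578-123982827, plus strand).
Ntsr1: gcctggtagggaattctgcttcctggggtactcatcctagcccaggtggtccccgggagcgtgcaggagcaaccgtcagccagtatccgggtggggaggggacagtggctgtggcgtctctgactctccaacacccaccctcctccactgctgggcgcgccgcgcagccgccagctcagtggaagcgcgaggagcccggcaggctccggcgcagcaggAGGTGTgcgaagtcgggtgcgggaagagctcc
Hs3st5: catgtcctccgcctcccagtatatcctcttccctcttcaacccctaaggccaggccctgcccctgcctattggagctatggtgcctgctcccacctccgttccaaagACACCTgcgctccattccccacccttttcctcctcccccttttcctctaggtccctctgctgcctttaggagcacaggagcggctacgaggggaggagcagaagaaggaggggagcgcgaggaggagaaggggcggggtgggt
Hs3st4: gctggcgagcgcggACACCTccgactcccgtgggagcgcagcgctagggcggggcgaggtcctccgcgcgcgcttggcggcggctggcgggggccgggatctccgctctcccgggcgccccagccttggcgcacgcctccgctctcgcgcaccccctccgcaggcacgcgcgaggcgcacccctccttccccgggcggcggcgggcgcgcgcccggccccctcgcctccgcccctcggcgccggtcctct

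The half-site lay 32 to 27 bases before the start of Ntsr1, 143 to 138 bases before that of Hs3st5 and 236 to 231 bases before that of Hs3st4. Of the 20 highest-ratio genes 14 had an entry in the promoter table, and AGGTGT was found on either strand in 2 of them, Ntsr1 and Hs3st5. The 14 genes had 19 promoters in the table, of which 2 (10.5%) held it, against 11.8% of all 32851 promoters of this length. The E-box CAGATG, searched on both strands, was found for Maml2, Rimbp2 and Nfe2l3, in 3 of the 19 promoters (15.8%) and in 14.4% of all promoters. Among the 9 lowest-ratio genes with an entry, 1 held the half-site and 1 the E-box, in both cases Fam210b. Of the genes of the rule, Rprm had neither motif, and Foxp2 and Wnt7b had no entry. These matches are descriptions of the sequence and not sites of binding.

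Genes of axon growth and contact were described by lists, whose counts stand beside the 0.899% of all tested genes at least 2-fold higher and the 3.29% at least 2-fold lower. Of 19 tested guidance receptors, 1 was at least 2-fold higher and 4 at least 2-fold lower, with a median log2 ratio of -0.28. The higher one was Ntrk2, the receptor of the neurotrophin BDNF, at 85.3 CPM against 35.6 CPM (log2 ratio 1.26, 1.08 to 1.44). The lower ones were the Slit receptor gene Robo1 (-1.34) and the semaphorin receptor genes Nrp1 (-3.04), Nrp2 (-1.99) and Plxna4 (-2.27). The ephrin receptor genes Epha7 (0.64) and Ephb1 (0.60) and the plexin gene Plxna1 (0.59) were higher by less than 2-fold.

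Among 17 tested guidance ligands 4 were at least 2-fold lower and none higher by that much. Sema3c had a log2 ratio of -2.26 and Bdnf, the ligand of Ntrk2, one of -1.69. Slit2 and Slit3 had 2 and 3 UMIs in the members, with log2 ratios of -3.21 (-6.27 to -1.33) and -3.52 (-5.81 to -1.96). Among 15 tested cadherins the protocadherin gene Pcdh9 was higher, at 156 CPM against 72.6 CPM (log2 ratio 1.10), and Cdh8 (-1.38), Cdh12 (-1.91) and Pcdh8 (-2.21) were lower. Without Rprm in the score the log2 ratio of Cdh12 was 0.0025.

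Hs3st4 and Wnt7b belong to families whose other genes played no part in the rule. Of 11 tested heparan sulfate enzymes other than Hs3st4, Hs3st5 alone was at least 2-fold higher and none was lower by that much. The related Hs3st2 and Hs3st1 had log2 ratios of 0.70 and -0.36, and the 6-O-sulfotransferase genes Hs6st1 and Hs6st2 had 0.70 and 0.65. Of 14 tested Wnt pathway genes other than Wnt7b, its closest relative Wnt7a was at least 2-fold higher, at 9.54 CPM against 3.33 CPM (log2 ratio 1.52, 0.94 to 2.07). Wnt5a (-2.12) and the nuclear effectors Lef1 (-1.42) and Tcf7l2 (-3.74) were lower. Tcf7l2 was found in only 5.04% of the other eligible barcodes, with up to 68 UMIs in 1 of them. Ctnnb1, which encodes beta-catenin, had a log2 ratio of -0.32 and Axin2, a common target of the pathway, one of 0.08.

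Genes of synaptic transmission were mostly level. The median log2 ratio was 0.03 over 20 presynaptic genes, of which only Syt4 passed 2-fold (log2 ratio -1.34), and 0.02 over 17 tested potassium channel genes, of which only Kcnn2 did (log2 ratio -1.21). Of 16 tested genes of glutamate transmission, Grik3 and Grm3 were at least 2-fold higher. Slc17a7, which encodes the vesicular glutamate transporter of cortical neurons, stood at 64.8 CPM against 36.0 CPM, a log2 ratio of 0.85 (0.65 to 1.05), and Slc17a6, its counterpart in many subcortical neurons, at 6.53 CPM against 11.1 CPM.

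Areal and projection neuron regulators differed in both directions. Tshz3 was at least 2-fold higher among 15 tested, at 96.1 CPM against 48.0 CPM, a log2 ratio of 1.0016 that fell under 2-fold in 12 of 18 other settings. Nr2f2, Lmo4, Emx2, Pax6, Bhlhe22, Tshz1 and Zbtb20 were at least 2-fold lower. The paralogs Nr2f1 and Nr2f2 stood apart, with log2 ratios of 0.59 (0.41 to 0.78) and -1.20 (-1.66 to -0.78), as did Lmo3 and Lmo4, with 0.64 (0.55 to 0.73) and -1.10 (-1.29 to -0.91).

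To see whether these genes changed in a step at the members, the eligible barcodes were ordered by the 4-gene mean and divided into 10 bins of 222 or 223 barcodes, with bin 10 the highest. The bins also differed in depth, with median UMIs between 12539 in bin 10 and 16412 in bin 4, and the part of depth in these levels was not tested. The level of Ntsr1 was graded, from 4.79 CPM in bin 4 and 14.0 CPM in bin 6 to 42.0 CPM in bin 10. Tle4 had reached 137 CPM by bin 8, and bins 9 and 10 stood at 149 and 148 CPM. Nr4a2 went from 26.0 CPM in bin 1 to 165 CPM in bin 10, and Ngfr from 4.36 CPM to 52.0 CPM. The members filled bin 10 and part of bin 9, so no bin edge lay at the edge of the members. The bins given for Ntsr1, Nr4a2 and Ngfr therefore do not show their levels just outside the members. Tle4 in bin 8, which held no members, was already near its level in bins 9 and 10.

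Npy, by contrast, was concentrated at the top, with 434 CPM in bin 10 against 166 CPM in bin 9, although bin 4, which holds the barcode with 545 UMIs, stood at 158 CPM. Fezf2 was highest in the middle, where bin 6 reached 466 CPM while bins 1 and 10 stood at 299 and 295 CPM. Crym had a similar course, reaching 317 CPM in the same bin, with 71.0 and 186 CPM at the ends. Neurod1 was highest in bin 4 at 212 CPM and stood at 7.51 CPM in bin 10, and Nrp1 went from 250 CPM in bin 1 to 17.4 CPM in bin 10.

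**Figure D3:**
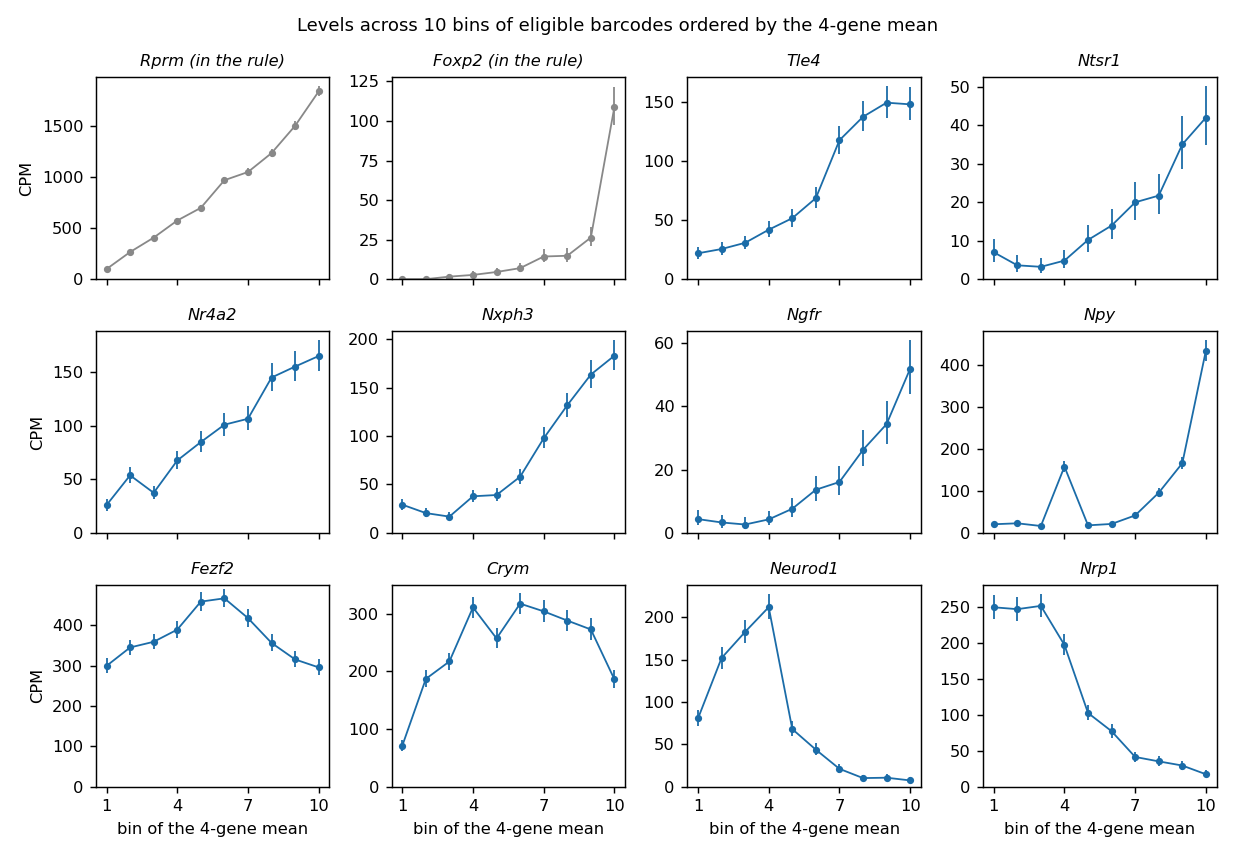
Each panel gives the level of 1 gene in CPM (vertical axis) over 10 bins of the 2225 eligible barcodes ordered by the 4-gene mean (horizontal axis, bin 10 highest), with exact 95% Poisson intervals. Rprm and Foxp2 (grey) are genes of the rule and increase by construction, Tle4, Ntsr1, Nr4a2, Nxph3 and Ngfr increase over several bins, and Fezf2 and Crym are highest in the middle.

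The members were then set against 3 groups of 300 other eligible barcodes, those with the highest mean score of layer 5 genes (Fezf2, Bcl11b, Ldb2, Crim1), of subplate genes (Nr4a2, Cplx3, Nxph4, Lpar1) and of upper-layer genes (Cux1, Cux2 and Pou3f2 among them). The genes that chose either side were left out of each comparison. Had members been allowed in, 83 of the 300 (27.7%) would have been in the subplate-like set, 14 (4.67%) in the layer 5-like set and 20 (6.67%) in the upper-layer-like set. The sets also shared barcodes among themselves, 56 between the subplate-like and upper-layer-like sets, 21 between the subplate-like and layer 5-like sets and 14 between the layer 5-like and upper-layer-like sets. Median depth was 13772 UMIs in the subplate-like, 16028 in the layer 5-like and 14615 in the upper-layer-like set.

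The subplate-like set was the one most like the members. Of 7270 genes, 7 (0.0963%) were at least 2-fold higher in the members and 76 (1.05%) at least 2-fold lower. Lpl, which encodes lipoprotein lipase, stood at 256 CPM against 104 CPM (log2 ratio 1.30, 1.14 to 1.46). Also among the 6 highest were the proteinase genes Adamts18 (1.36) and Mmp17 (1.22), the microtubule protein gene Eml1 (1.14) and the matrix protein gene Fbln1 (1.08). The 6 lowest were Cbln2 (-3.13), Hmgb2 (-3.02), Vwc2 (-2.42), Ptn (-2.20), Cdkn1a (-2.10) and Zbtb20 (-2.03). Tbr1 stood at 442 CPM in the members against 389 CPM in the subplate-like set, a log2 ratio of 0.18 (0.09 to 0.28). Tle4 stood at 149 CPM in the members and 142 CPM in the subplate-like set, a log2 ratio of 0.07 (-0.10 to 0.23), and Ntsr1 at 41.9 CPM against 31.6 CPM, a log2 ratio of 0.41 (0.07 to 0.75). Sox5 (0.57) and Crym (0.63) were higher in the members by less than 2-fold. None of the 20 genes ranked highest against all other eligible barcodes, Npy and Ngfr included, was among the 6 highest here. Genes outside the limits for comparison were not ranked. Some genes that stood out against all other eligible barcodes differed less here. Grm3 stood at 31.9 CPM against 26.7 CPM, a log2 ratio of 0.26 (-0.12 to 0.63). The log2 ratios were 0.80 for Rgs8, 0.42 for Whrn, -0.17 for A830018L16Rik and -0.52 for Kcnab1.

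Against the layer 5-like set, 81 of 7297 genes (1.11%) were at least 2-fold higher in the members and 83 (1.14%) at least 2-fold lower. The highest were Npy, at 377 CPM against 20.8 CPM (log2 ratio 4.18, 3.89 to 4.48), Ngfr (3.16), Grm3 (2.98), Wscd1 (2.63), Vstm2b (2.53) and Whrn (2.45). The lowest were Tle3 (-2.74), Pou3f3 (-2.57), Nrp1 (-2.53), Crip1 (-2.43), Lmo1 (-2.31) and Oma1 (-2.17). Ntsr1 stood at 9.48 CPM in that set (log2 ratio 2.14) and Tle4 at 52.3 CPM (1.51), whereas Sox5, at 346 CPM, had a log2 ratio of only 0.20. Fezf2 and Bcl11b, which chose the set, are not compared.

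Against the upper-layer-like set, 127 of 7320 genes (1.73%) were at least 2-fold higher in the members and 205 (2.8%) at least 2-fold lower. Among the highest were Mlip (2.85), Mctp1 (2.62), Ngfr (2.57), Cav1 (2.51) and Akap7, which encodes an anchor for protein kinase A, at 148 CPM against 27.9 CPM (2.41). The lowest were Pou3f1 (-6.78, -9.83 to -4.91, from 2 UMIs in the members), Fam210b (-6.38, -8.67 to -4.82, from 3 UMIs), Cbln2 (-4.52), Pou3f3 (-3.98), Hmgb2 (-3.97) and Ptn (-3.74). Sox5 (1.16) and Crym (1.84) were at least 2-fold higher in the members here, unlike in the comparison with the layer 5-like set.

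At equal depth the share of barcodes with a UMI ordered the groups for Tle4 and Ntsr1 as their levels did. Tle4 was found in 72.7% of members (67.2% to 77.6%), 66.3% of the subplate-like set, 38.4% of the other eligible barcodes, 31.0% of the layer 5-like set and 29.0% of the upper-layer-like set. In Reln-high barcodes, whose median depth before thinning was 17198 UMIs, it was found in 31.2%. Ntsr1 was found in 33.3% of members (28.0% to 39.0%), 27.3% of the subplate-like set and 11.6% of the other eligible barcodes, against 3.47% of Reln-high barcodes. The intervals of the members and the subplate-like set overlapped for both genes. Npy was found in 43.7% of members and in 23.0% of the subplate-like set (18.4% to 28.2%), above the 14.6% of Reln-high barcodes. Without thinning the shares in members were 79.7% for Tle4, 38.3% for Ntsr1 and 47.7% for Npy.

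**Figure D4:**
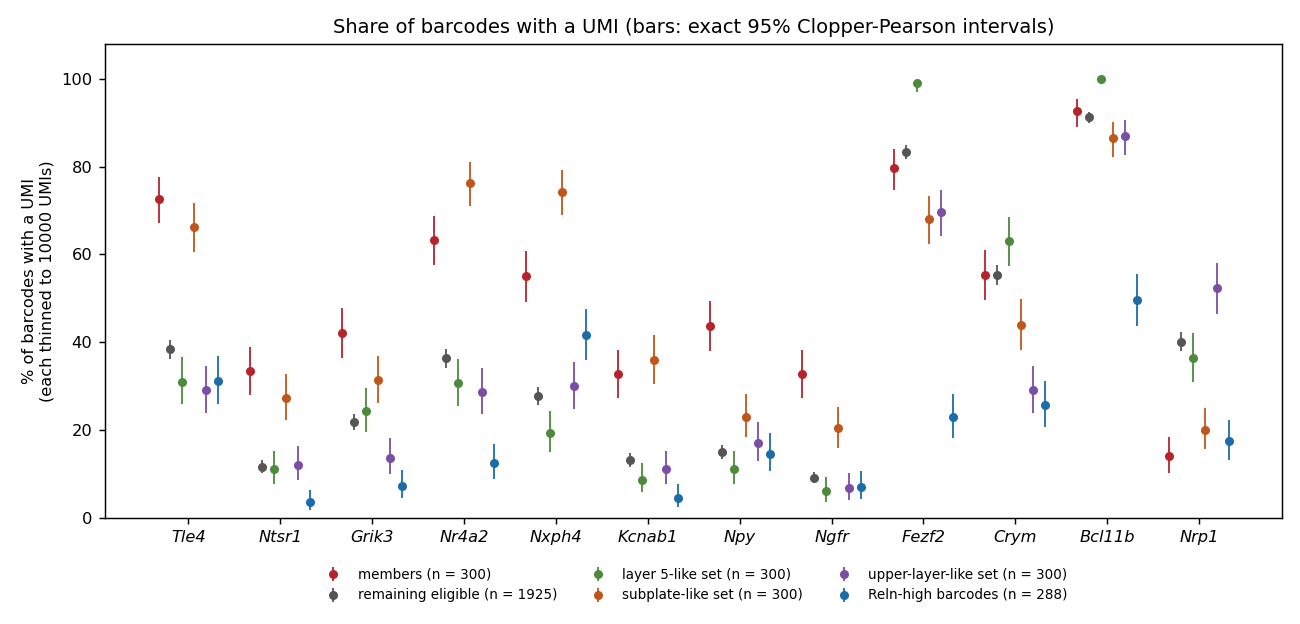
The share of barcodes with at least 1 UMI (vertical axis, percent, after thinning each barcode to 10000 UMIs) is drawn for 12 genes in the 300 members, the 1925 remaining eligible barcodes, 3 sets of 300 and 288 Reln-high barcodes, with exact 95% Clopper-Pearson intervals. Members and the subplate-like set lie close for Tle4 and Ntsr1, and the members stand above every other group for Npy and Ngfr.

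The members also varied among themselves. On counts thinned to 10000 UMIs the variance of a gene divided by its mean is 1 for counting error alone, and its median over 7387 genes found in at least 10% of members was 1.02. Malat1 (30.7), Actb (18.7) and Npy (17.1) had the highest values, and Calb2 (8.24) and Cck (6.13), which mark several neuron classes, were among the 10 highest. The ratio grows with the level of a gene for the same relative spread, so genes of different levels cannot be ordered by it. It was 4.11 for Crym at a mean of 2.04 thinned UMIs, 3.09 for Fezf2 at 3.03 and 2.54 for Nr4a2 at 1.67.

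The members were also split by whether they held a thinned UMI of 1 gene, a choice made after the values were seen. There were 190 members with an Nr4a2 UMI and 110 without. Crym stood at 235 CPM against 170 CPM and Kitl at 124 CPM against 73.2 CPM in the same groups, and Ntsr1 at 43.2 CPM against 39.7 CPM. The 131 members with Npy had more Grm3 than the 169 without (log2 ratio 1.26, 0.72 to 1.82), and Ngfr at 64.7 CPM against 37.0 CPM. The 154 members with Foxp2 had Syt6 at 31.1 CPM against 14.3 CPM in the 146 without, and Crym at 158 CPM against 266 CPM. A barcode without Foxp2 needed more of the other 3 genes to be chosen, so the groups split on Foxp2 were selected on different genes, and levels of the rule genes within the members are not compared. Median depth was 12157 UMIs with and 13159 UMIs without Npy. It was 12790 UMIs with and 12557 UMIs without Nr4a2, and 12556 UMIs with and 12790 UMIs without Foxp2.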

How the data were processed

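Per the labels, the authors sorted Ebf2-EGFP+ cells at E15.5, processed about 3000 cells on the 10x Genomics Chromium platform and ran Cell Ranger 2.0.0 and Seurat 2.0. The submitters' notes name the build mm10. The deposited matrix holds unnormalized UMI counts for 27998 genes and 3000 barcodes, 57180867 UMIs in all, pooled over the 8 labelled samples. No cell annotation was used. Gene coordinates came from GENCODE vM21.

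Counts were read with Python 3.11.15 (numpy 2.4.6, scipy 1.17.1). Levels of the 4 genes, as log(1 + UMIs per 10000), were z-scored over the eligible barcodes and averaged, and the 300 highest were members. Doublets were not removed beyond the 25000 UMI limit, and Scrublet (scanpy 1.11.5) served as an alternative. Genes with under 100 UMIs, or with over 20% of UMIs in 1 barcode, were left out. Log2 ratios had exact conditional binomial, levels exact Poisson and shares exact Clopper-Pearson intervals. Called genes had a ratio of at least 2. Named genes were the marker and pathway lists, the 20 highest and 10 lowest ratios, the 6 highest and 6 lowest against each set, and genes chosen after their values were seen (Malat1, Actb, Cck and, in the comparison of sets, those listed for layer 6). The ratio and selection steps were tested on simulated data. The members and lists were chosen with earlier results of these data known. Some genes that met these rules are not reported here.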

Additional observations from a re-analysis of the deposited data

How the results depend on the processing

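No paired analysis was possible because the 8 labelled samples share 1 matrix with no map from barcodes to samples, and for the same reason no sample could be left out. For the members against the other eligible barcodes, 218 single-gene log2 ratios of the lists and rankings were recomputed under 18 settings. They gave 3828 values, of which 3459 stayed within the counting interval of the reported value. The sign of a ratio of at least 2-fold changed for 2 genes, Cdh12 (0.0025 without Rprm in the score) and Etv1 (0.3608 with the 4 genes' UMIs summed), and the cause was not tested. Of the 73 genes at 2-fold or more, 50 stayed so in every value obtained. Of the other 23, 14 fell under 2-fold in 1 or 2 settings, and Cdh8, Eomes, Grik3, Lmo4, Nr4a2, Nxph4, Syt4, Tshz3 and Unc5d in 3 or more. Single genes in the comparisons with the 3 sets were not recomputed. The number of genes at least 2-fold higher was 93 and became 235 with a minimum of 20 UMIs per gene and 37 with a minimum of 500, and the number at least 2-fold lower was 340 and became 932 and 92. More or fewer genes were tested at these minimums. Without a Reln limit 552 genes were at least 2-fold lower, and the cause was not tested. With thinning to 10000 UMIs the genes at least 2-fold lower than in the layer 5-like and subplate-like sets numbered 53 and 40 in place of 83 and 76, with fewer genes tested. The layer 6 markers at least 2-fold higher were 3 of 12 and became 2 in several settings. These were 150 members, any 1 of the 4 genes left out of the score, thinning, a limit of 20000 UMIs and summed UMIs. The share of members with a Tle4 UMI was 79.7% without thinning. Of the 300 members 178 were chosen again when the 4 genes' UMIs were summed, 200 without Foxp2 in the score and 246 after thinning. Removing the 2.3% of barcodes with the highest Scrublet score took out 1 member.

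With 1 pooled library, differences between embryos cannot be told apart from differences between cells, and the intervals leave them out. Several of the lowest ratios rest on 2 or 3 UMIs in the members.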
